A study of Mus musculus with 18 samples.

Results

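Apolipoproteins are the protein coat of the plasma lipoproteins, the particles that carry cholesterol and triglyceride between organs. 10 of their genes were followed here, chosen as the spots that the array's annotation names Apob, Apoa1, Apoa2, Apom, Apoa4, Apoc1, Apoc2, Apoc3, Apoe or Apoh. All 10 genes had 1 spot each, among 15095 named genes and 21765 spots with a value. Whole brain, kidney and liver RNA of DBA/2J mice was compared directly with that of C57BL/6J mice, both inbred strains, on 18 two-colour glass arrays, 6 per tissue. Each array carried RNA of both strains, from common pools of 10 mice for brain and kidney and 9 mice for liver. DBA/2J RNA carried Alexa Fluor 647 and C57BL/6J RNA Alexa Fluor 555 on every array, and the dyes were never swapped. No treatment or engineered allele is given for either strain, and the sources used here do not state age or sex. The 6 arrays of a tissue repeat the hybridisation of the same pools, so each p-value below measures the spread between hybridisations and not between mice, and strain and dye cannot be told apart within a tissue. A dye effect that is constant for a spot cancels when 2 tissues are compared.

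The liver secretes most apolipoproteins. Apob is the structural protein that stays with a particle of the very low density or low density class for its lifetime, Apoa1 and Apoa2 are the main proteins of high density lipoprotein, and the small C proteins exchange between particles and regulate lipolysis and uptake. Apoe binds the receptors that clear remnant particles, and in the brain, which plasma lipoproteins do not enter freely, astrocytes are its main source. Apoe, Apoc1 and Apoc2 lie together on chromosome 7, and Apoa1, Apoc3 and Apoa4 lie together on chromosome 9.

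A ratio below is the normalised log2 ratio of DBA/2J over C57BL/6J, so 0 means equal signal and a positive value most likely means more signal from DBA/2J. The labels give the dyes but not the order of the ratio, so the direction is likely, not stated. Hc, the complement C5 gene, of which DBA/2J is known to carry a defective allele, was lower in DBA/2J liver by this reading (-1.08 ± 0.50, SD, n = 6 arrays, adjusted p = 0.000415). A gene was called where limma's adjusted p, corrected by the Benjamini-Hochberg method over all 20218 features, was under 0.05. A second, stricter rule also asked for a 1.5-fold difference. The deposited ratios were not centred, with array medians between -1.65 and 0.16, and their correlation with spot intensity reached 0.719, in kidney. In simulated arrays the kidney fit called many small differences that had not been put in, so kidney calls under 1.5-fold carry little weight. Brain array 1 stood apart, with a mean correlation of 0.237 to the other brain arrays against 0.345 to 0.438 for the rest. The tissues matched their labels by defining markers. Liver markers had a median intensity percentile of 99.6 in liver against 51.0 in brain and 48.8 in kidney, kidney markers 94.99 in kidney against 54.9 in brain and 39.6 in liver, and brain markers 93.3 in brain against 27.2 in kidney and 44.0 in liver.

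The sequences just upstream of 4 genes are printed because these are the genes called between the strains in liver, 1 lower and 3 higher in DBA/2J. Each is the 250 bases before the annotated start in RefSeq's GRCm38.p6 assembly, 5′ to 3′ on the gene's strand, and comes from the reference strain, so it shows no DBA/2J allele. Capitals mark matches to any of 6 motifs searched on both strands: the nuclear receptor half-site AGGTCA, the HNF4 element CAAAGTCCA, the HNF1 half-site GTTAAT, the forkhead element TGTTTAC, the TATA box TATAAA and the CCAAT box CCAAT.
Apob (chr12:7977427-7977676, plus strand): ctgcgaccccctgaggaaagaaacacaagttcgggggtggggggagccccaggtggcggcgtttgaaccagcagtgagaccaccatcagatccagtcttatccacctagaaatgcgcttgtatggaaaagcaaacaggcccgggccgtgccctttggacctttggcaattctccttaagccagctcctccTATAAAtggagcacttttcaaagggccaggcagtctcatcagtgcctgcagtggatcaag
Apoa4 (chr9:46240594-46240843, plus strand): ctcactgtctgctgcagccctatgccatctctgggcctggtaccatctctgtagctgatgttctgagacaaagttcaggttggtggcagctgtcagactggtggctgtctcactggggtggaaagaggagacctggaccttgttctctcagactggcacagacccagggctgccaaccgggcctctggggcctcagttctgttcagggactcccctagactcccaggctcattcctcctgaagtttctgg
Apoc2 (chr7:19677942-19678191, minus strand): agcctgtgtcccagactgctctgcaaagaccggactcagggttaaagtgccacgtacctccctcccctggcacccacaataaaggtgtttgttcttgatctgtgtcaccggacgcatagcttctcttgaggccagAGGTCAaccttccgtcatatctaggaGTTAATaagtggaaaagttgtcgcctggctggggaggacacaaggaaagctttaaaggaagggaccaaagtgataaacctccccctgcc
Apoh (chr11:108395047-108395296, plus strand): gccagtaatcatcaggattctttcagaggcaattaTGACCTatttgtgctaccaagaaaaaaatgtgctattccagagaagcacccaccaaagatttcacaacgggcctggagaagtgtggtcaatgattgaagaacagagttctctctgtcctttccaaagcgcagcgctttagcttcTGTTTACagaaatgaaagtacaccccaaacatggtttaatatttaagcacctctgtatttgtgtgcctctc
Apob, the gene lower in DBA/2J liver, held a TATA box 60 bases upstream of its start. Apoc2 held the nuclear receptor half-site 115 bases and the HNF1 half-site 89 bases upstream. Apoh held the reverse complement of the nuclear receptor half-site, TGACCT, 215 bases upstream and the forkhead element 71 bases upstream. None of the 6 motifs was found in these letters for Apoa4. Among 32851 windows of the same length, 14.0% held the nuclear receptor half-site, 6.43% the HNF1 half-site, 3.17% the forkhead element, 12.4% the TATA box, 33.8% the CCAAT box and 0.384% the HNF4 element. The matches describe the letters only. Windows were found for 8 of the 10 genes, all except Apoc1 and Apoc3.

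Most of the spots were brightest, relative to the other features of the tissue, in liver. Intensity is given as the percentile of the intensity fitted to each spot, among the 20218 features of a tissue. It is read for the same spot across tissues, since the spots of different genes differ in sequence and length. The fit in 1 tissue drew in part on the others, so similar percentiles across tissues are partly built in. In liver, 7 of the 10 spots were at or above the 95th percentile, against 1 in brain and 0 in kidney. Apoa1 stood at percentile 98.9 in liver, 33.9 in kidney and 20.8 in brain, and Apob at 95.5, 15.8 and 3.31. Apoh, a phospholipid-binding plasma glycoprotein, showed the same order, with 99.5 in liver, 34.0 in kidney and 20.8 in brain. Apoc2 stood at 97.5 in liver, 69.8 in kidney and 33.3 in brain, and Apoc3 at 99.0, 63.0 and 32.5. The spot of Apoe was bright in brain as well, at percentile 96.5, against 99.8 in liver and 78.1 in kidney. Apoc1 was at 99.9 in liver, 81.9 in kidney and 59.0 in brain. The other 3 spots set liver apart less. Apoa2 was at 85.8 in liver, 68.8 in brain and 37.6 in kidney, and Apoa4 at 85.0, 73.3 and 66.1. Apom, which liver and kidney are known to make, stood at 56.9 in liver, 66.9 in kidney and 55.5 in brain. The signal of the Apom spot therefore did not separate liver from brain, and those of Apoa2 and Apoa4 did so only in part. This limits how far the ratios of these 3 spots can be read as those of the named genes.

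**Figure D1:**
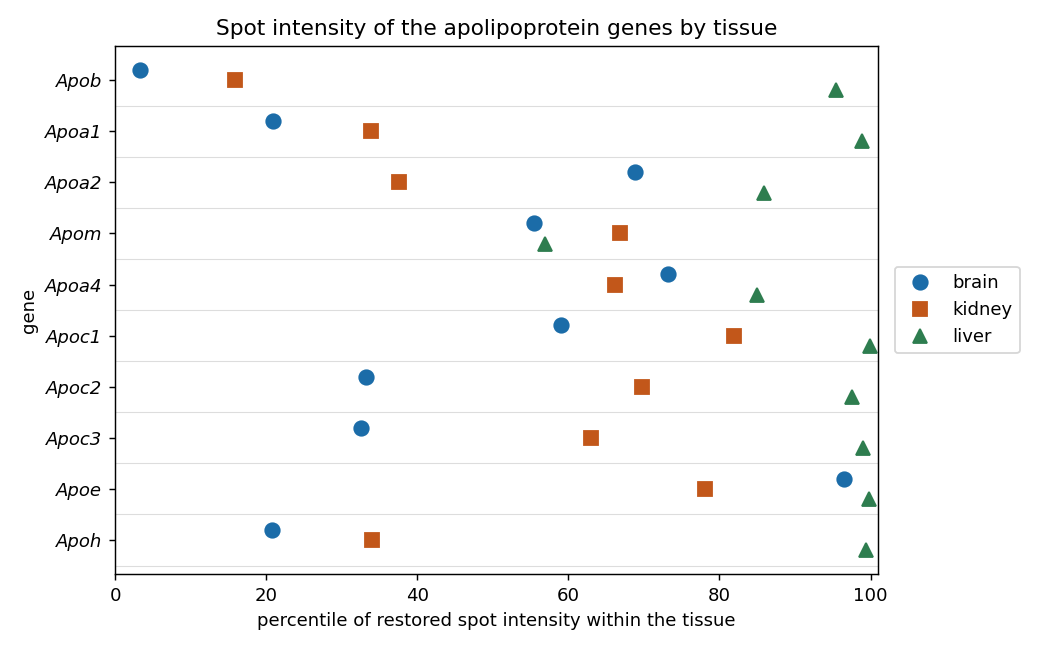
Percentile of the fitted intensity of each gene's spot among all features of the tissue (x axis, percent, labelled restored spot intensity), for brain (circles), kidney (squares) and liver (triangles), mean over 6 arrays. In liver 7 of the 10 spots lie at or above the 95th percentile, and in brain only Apoe does.

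Between the strains, 13 of the 30 combinations of gene and tissue were called, spread over 9 of the 10 genes. In brain 1 gene was higher and 1 lower in DBA/2J, where 13.1% of all features were called (7.03% higher and 6.03% lower). In kidney 3 genes were higher and 4 lower, against 36.2% of all features called (18.2% higher and 18% lower). In liver 3 were higher and 1 lower, against 23.2% called (11.0% higher and 12.2% lower). Under the 1.5-fold rule the counts were 1 in brain (1.65% of all features), 3 in kidney (3.54%) and 0 in liver (2.42%). The family's median ratio was -0.04 in brain, -0.05 in kidney and, on the liver arrays, 0.19, and that of all features was 0.0044, 0.0076 and 0.0026 in the same order. The sign was shared by all 6 arrays for 3 genes in brain (17.8% of all features), 6 genes in kidney (32.1%) and 4 genes in liver (24.8%). No gene was called in all 3 tissues, as 3.30% of all features were, 4 were called in 2 tissues, 5 in 1 tissue and Apoc3 in none. The shares of all features called in 2, 1 or no tissue were not counted, so these last numbers have no comparison. The differences between tissues were tested for all 10 genes, and 12 of the 30 passed. Relative to kidney, the ratio in brain was higher for 2 genes and lower for 3, with 17.6% of all features called. Relative to liver, it was higher in brain for 1 gene and lower for 2 (7.14% of all features called). In kidney relative to liver, 1 gene was higher and 3 were lower (14.4% called). In bulk RNA, fewer cells of a type and less RNA per cell cannot be told apart.

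**Figure D2:**
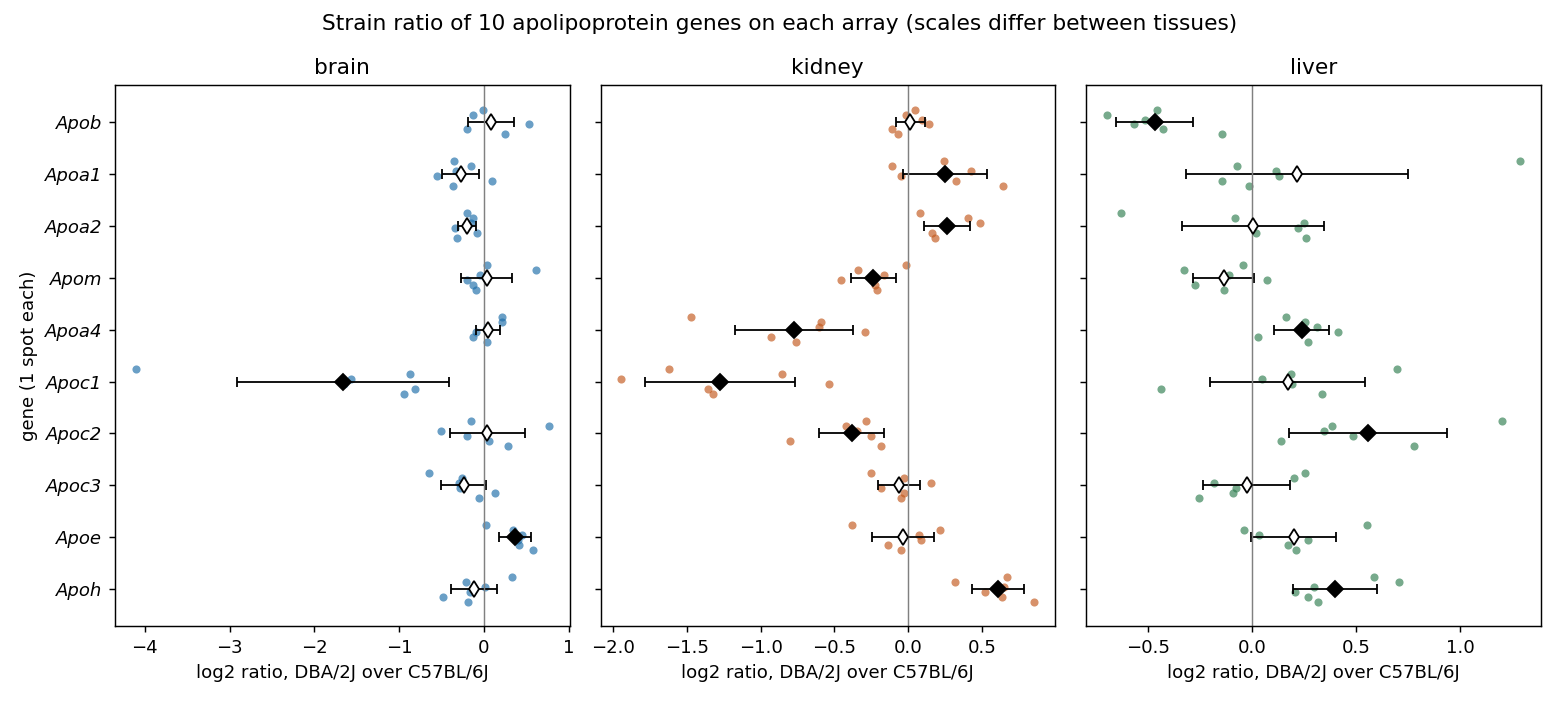
Normalised log2 ratio of DBA/2J over C57BL/6J (x axis, a separate scale for each tissue) for each gene on each of the 6 brain, kidney and liver arrays (coloured points, arrays 1 to 6 from top to bottom within a row), with the mean and SD of the 6 arrays (black). Filled diamonds mark an adjusted p under 0.05, as for Apoc1 in brain and kidney, where all 6 arrays lie below 0, and open diamonds the rest.

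Apob, the structural protein of triglyceride-rich particles, was lower in DBA/2J liver on all 6 arrays. The lowest liver array stood at -0.70, the median at -0.49 and the highest at -0.14. The mean of -0.47 ± 0.19 (SD, n = 6) was 1.38-fold lower in DBA/2J (limma adjusted p = 0.00154). In brain the arrays ran from -0.20 to 0.53 with a median of 0.03 and the mean was 0.09 ± 0.27 (adjusted p = 0.582). The kidney arrays ran from -0.11 to 0.14 with a median of 0.01 and a mean of 0.01 ± 0.10 (adjusted p = 0.877). Without loess the kidney mean was -0.58 and was called (adjusted p = 8.65e-05), with loess on the unrestored intensity it was -0.13 (adjusted p = 0.223) and with 1 loess per array -0.07 (adjusted p = 0.576), so the direction in kidney is not settled. After normalisation all kidney arrays lay above all liver arrays, whereas brain and liver arrays overlapped. The ratio was higher in brain than in liver by 0.55 (SE 0.11, adjusted p = 0.00277, with 7.14% of all features called in that contrast) and higher in kidney than in liver by 0.48 (SE 0.11, adjusted p = 0.00533, with 14.4% called). The spot was among the dimmest in brain, at intensity percentile 3.31, and dim in kidney, at 15.8, which limits both differences. The liver call held in every alternative tried, with values between -0.53 and -0.42. Neither difference between tissues kept its call with arrays centred on their median and no loess (0.24 for brain minus liver, adjusted p = 0.421, and -0.14 for kidney minus liver, adjusted p = 0.425). The difference between kidney and liver was also not past the threshold with loess on the unrestored intensity (0.32). Before normalisation, the liver intensities of Apob had a median of 1175 in the DBA/2J channel and 3714 in the C57BL/6J channel. These intensities still hold the offset of the whole array, as the deposited liver array medians averaged -1.11, so their gap is not the strain difference.

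Apoa1, the main protein of high density lipoprotein and the activator of the particle's cholesterol-esterifying enzyme, had kidney values from -0.11 to 0.64 with a median of 0.29. Its kidney mean was 0.25 ± 0.29, 1.19-fold higher in DBA/2J (adjusted p = 0.0482), and 4 of 6 arrays were above 0. This call was lost without kidney array 1 (0.25, adjusted p = 0.0940), array 3 (0.21, 0.116), array 5 (0.23, 0.1001) or array 6 (0.17, 0.169), and the exact two-sided sign-flip test of the 6 arrays gave p = 0.125. Without loess the mean was -0.35 (adjusted p = 0.0406) and with 1 loess per array -0.10 (adjusted p = 0.640), so its direction is not settled. The brain arrays of Apoa1 ran from -0.55 to 0.09 with a median of -0.34. 5 of the 6 were below 0, and the brain mean of -0.28 ± 0.22 missed the threshold (adjusted p = 0.0511), although it passed without brain array 5 (-0.35, adjusted p = 0.0326), without loess (-0.51, adjusted p = 0.0118) and with 1 loess per array (-0.35, adjusted p = 0.0303). In liver, array 1 stood at 1.29 and the other 5 between -0.14 and 0.13. The liver mean was 0.22 ± 0.53 (adjusted p = 0.322) and became 0.0040 without array 1 (adjusted p = 0.976). The ratio was lower in brain than in kidney by 0.52 on the log2 scale (-0.52, SE 0.18, adjusted p = 0.0479, with 17.6% of all features called), and with the replicate number as a block the adjusted p was 0.0521. It was also lost without replicate 3 (-0.48, adjusted p = 0.125), 4 (-0.53, 0.102), 5 (-0.58, 0.0609) or 6 (-0.43, 0.179), with the intensity trend and robust prior (-0.52, adjusted p = 0.0613), and under each other normalisation, where the value lay between -0.40 and -0.16.

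Apoa2, the second protein of high density lipoprotein, was above 0 on all 6 kidney arrays, from 0.08 through a median of 0.22 to 0.49. The kidney mean was 0.26 ± 0.16, 1.20-fold higher in DBA/2J (adjusted p = 0.0103). Without loess it was 0.13 (adjusted p = 0.399) and with 1 loess per array 0.33 (adjusted p = 0.0719). In brain all 6 arrays were below 0, from -0.34 through a median of -0.18 to -0.08, and the mean of -0.20 ± 0.10 did not pass (adjusted p = 0.0723). Brain and kidney arrays did not overlap, and the ratio was -0.47 in brain relative to kidney (SE 0.12, adjusted p = 0.0114), which was not past the threshold without loess (-0.22, adjusted p = 0.360) or with 1 loess per array (-0.49, adjusted p = 0.0572). Liver values ran from -0.63 to 0.26 around a mean of 0.01 ± 0.34 (adjusted p = 0.968). Array 1 gave the lowest of them and the mean without it was 0.13.

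Apom, the carrier of sphingosine phosphate on high density lipoprotein, was below 0 on all 6 kidney arrays, between -0.46 and -0.01 with a median of -0.22. The mean of -0.24 ± 0.15 was 1.18-fold lower in DBA/2J (adjusted p = 0.0183). The call did not hold without kidney array 2 (-0.21, adjusted p = 0.0546) or array 4 (-0.19, adjusted p = 0.0745), with loess on the unrestored intensity (-0.19, adjusted p = 0.115) or with 1 loess per array (-0.09, adjusted p = 0.468), and without loess the mean was 0.12 (adjusted p = 0.284). In liver the arrays ran from -0.32 to 0.07 around -0.13 ± 0.15 (adjusted p = 0.185). In brain array 2 stood at 0.62 and the other 5 between -0.20 and 0.04. The brain mean was 0.03 ± 0.30 (adjusted p = 0.868) and was -0.09 without array 2 (adjusted p = 0.531).

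Apoa4, which in the mouse is made by intestine and liver and travels on chylomicrons and high density lipoprotein, was lower in DBA/2J kidney. The spot stood at intensity percentile 66.1 in kidney, 73.3 in brain and 85.0 in liver. It set liver apart little, which limits how far its kidney ratio can be read as that of Apoa4. Its kidney arrays ran from -1.47 through a median of -0.68 to -0.29, all 6 below 0. The mean was -0.78 ± 0.40, 1.71-fold lower in DBA/2J (adjusted p = 0.000210), and it stayed past the threshold in every alternative, between -0.87 and -0.56. In liver the direction was opposite. All 6 liver arrays were above 0, from 0.03 through 0.26 to 0.41, and the mean of 0.24 ± 0.13 was 1.18-fold higher in DBA/2J (adjusted p = 0.0248). The liver call was lost without liver array 3 (0.23, adjusted p = 0.0769), array 4 (0.21, 0.0881) or array 6 (0.24, 0.0632). Brain values lay between -0.12 and 0.22 (mean 0.05 ± 0.14, adjusted p = 0.712). Kidney arrays overlapped with neither brain nor liver arrays. The kidney ratio was -1.02 relative to liver (SE 0.14, adjusted p = 1.02e-05), and the brain ratio was 0.82 above the kidney ratio (SE 0.14, adjusted p = 0.000226). Both tissue differences were called in every alternative.

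Apoc1, a small protein that slows the uptake of remnant particles and inhibits lipases, had the lowest ratios of the family. In kidney all 6 arrays were below 0, with the lowest at -1.95, the median at -1.34 and the highest at -0.54. The kidney mean of -1.27 ± 0.51 was 2.42-fold lower in DBA/2J (adjusted p = 1.75e-05) and stayed called in every alternative, between -1.42 and -0.79. The brain arrays were all below 0 too, with array 1 at -4.11 and the other 5 between -1.65 and -0.81. The brain mean was -1.66 ± 1.25, 3.16-fold lower (adjusted p = 0.00857). Leaving out array 1 moved it to -1.17 (adjusted p = 0.000607), and the intensity trend with a robust prior ended the call on all 6 arrays (adjusted p = 0.0929). On brain array 1 the restored intensities were 187 for DBA/2J and 3813 for C57BL/6J, the highest C57BL/6J value of the 6, whose median was 1012. The DBA/2J channel of the brain arrays ran from 146 to 508. The array that stood apart over all spots also held the extreme Apoc1 value, and its part in that value was not tested.

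The liver gave a different picture for Apoc1. Values ran from -0.44 through a median of 0.19 to 0.69, and the mean of 0.17 ± 0.37 was not called (adjusted p = 0.295). Without liver array 5 it was 0.29 (adjusted p = 0.0415), without loess 0.73 (adjusted p = 0.00137) and with 1 loess per array 0.59 (adjusted p = 0.0114). The spot was among the brightest on the liver arrays, and a channel reached 65000, close to the scanner's limit of 65535, on 2 of the 6. On array 4 both channels were there, at 65527 for DBA/2J and 65523 for C57BL/6J, and on array 6 the C57BL/6J channel was there, at 65524 against 62963 for DBA/2J, so the ratios on both arrays are bounded by the scanner. Neither the brain nor the kidney arrays overlapped with the liver arrays. The ratio was -1.83 in brain relative to liver (SE 0.37, adjusted p = 0.00234) and -1.45 in kidney relative to liver (SE 0.37, adjusted p = 0.00976), and both were called in every alternative. With both bounded liver arrays left out, a setting chosen after seeing the data, the liver mean was 0.12 (adjusted p = 0.643), brain minus liver -1.78 (adjusted p = 0.0177) and kidney minus liver -1.40 (adjusted p = 0.0433). Brain and kidney did not differ past the threshold (-0.39, SE 0.37, adjusted p = 0.505; 0.03 without replicate 1). Macrophages are known to express Apoc1. Of 16 measured macrophage markers, 0 were higher and 1 lower in DBA/2J brain (Ctss, -0.33, adjusted p = 0.0112), beside 7.03% and 6.03% of all features. In kidney 0 of them were higher and 2 lower (Cd14, -1.23, adjusted p = 7.01e-06, and Ctss, -0.25, adjusted p = 0.0268, but 0.32 without loess), beside 18.2% and 18% of all features. The median ratio of these markers on an array ran from -0.08 to 0.05 in brain and from -0.12 to -0.02 in kidney, and their part in the Apoc1 ratio was not tested. Over the 18 arrays, the 2 named genes whose ratios were most like those of Apoc1 were Fdps, an enzyme of cholesterol synthesis (Pearson r = 0.867), and 4930591E09Rik (r = 0.852). The mean ratio of Fdps was 0.88 in liver, 0.21 in kidney and 0.15 in brain, and these 18 points share pools and arrays.

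**Figure D3:**
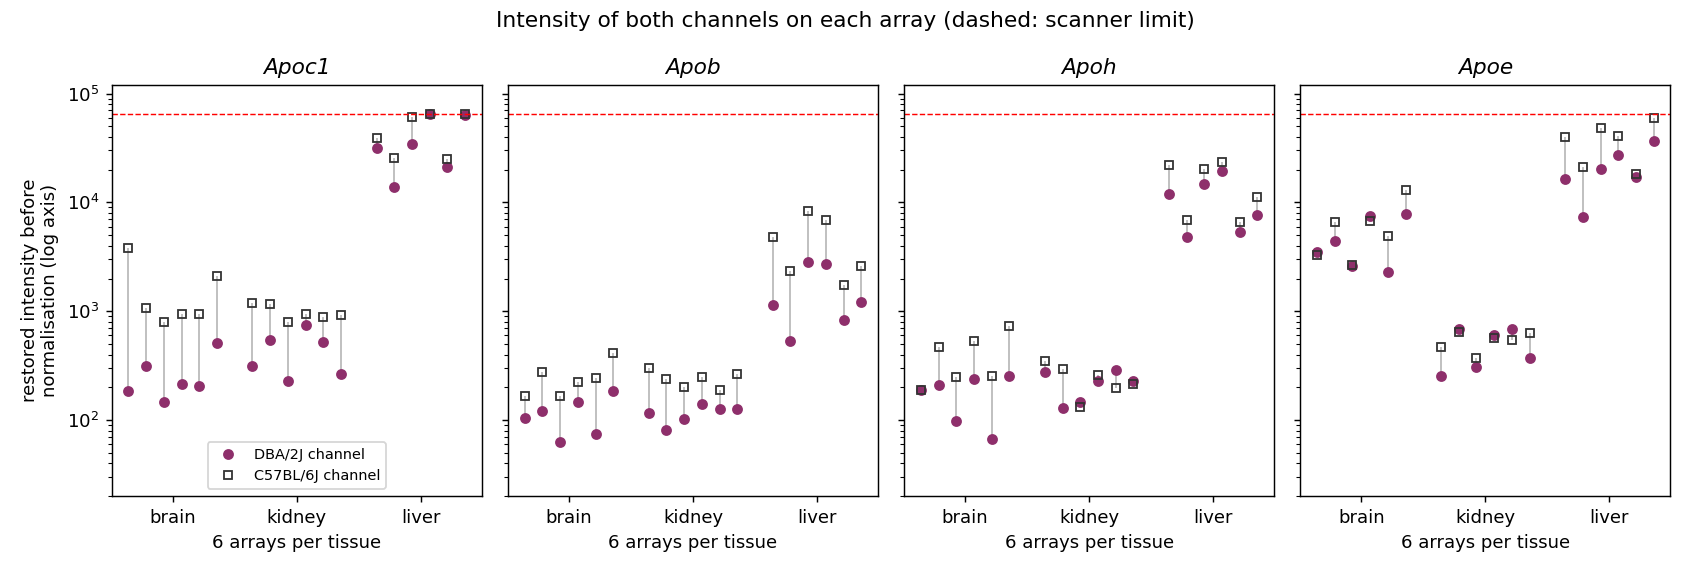
Restored intensity before normalisation (log axis) of the DBA/2J channel (filled circles) and the C57BL/6J channel (open squares) for Apoc1, Apob, Apoh and Apoe on the 6 arrays of each tissue, arrays 1 to 6 from left to right. The Apoc1 spot comes close to the scanner limit of 65535 (dashed line) on liver arrays, and on brain array 1 its channels lie at 187 and 3813.

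Apoc2, the activator of lipoprotein lipase, differed in opposite directions in liver and kidney. In liver all 6 arrays were above 0, with the lowest at 0.14, the median at 0.43 and the highest at 1.20 on array 1. The liver mean of 0.56 ± 0.38 was 1.47-fold higher in DBA/2J (adjusted p = 0.00580) and was 0.43 without array 1 (adjusted p = 0.0126). In kidney all 6 arrays were below 0, from -0.80 through -0.31 to -0.19. The kidney mean of -0.38 ± 0.22 was 1.30-fold lower in DBA/2J (adjusted p = 0.00251). It did not pass without loess (-0.15, adjusted p = 0.238) or with loess on the unrestored intensity (-0.24, adjusted p = 0.148). Kidney and liver arrays did not overlap, and the kidney ratio was -0.94 relative to liver (SE 0.18, adjusted p = 0.000694), a difference that was called in every alternative. The brain arrays lay on both sides of 0, between -0.51 and 0.77 (mean 0.04 ± 0.44, adjusted p = 0.871). The brain ratio relative to liver was -0.52 (SE 0.18, adjusted p = 0.0808) and passed without replicate 2 (-0.70, adjusted p = 0.0155). The named genes whose ratios over the 18 arrays were most like those of Apoc2 were Cert1, a ceramide transfer protein (r = 0.905), and 1810055G02Rik (r = 0.885).

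Apoc3, an inhibitor of lipoprotein lipase and so of opposite action to Apoc2, was the 1 gene called in no tissue. Its brain arrays ran from -0.65 through -0.27 to 0.13, with a mean of -0.24 ± 0.26 (SE 0.09, adjusted p = 0.112). Kidney arrays ran from -0.25 to 0.16 (mean -0.06 ± 0.14, SE 0.07, adjusted p = 0.503) and liver arrays from -0.26 to 0.26 (mean -0.02 ± 0.21, SE 0.08, adjusted p = 0.853). Its values overlapped between all 3 tissues and no tissue difference passed.

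Apoe, the receptor ligand of remnant particles and the main lipid carrier made inside the brain, was higher in DBA/2J brain. All 6 brain arrays were above 0, with array 1 lowest at 0.02, a median of 0.40 and the highest at 0.58. The brain mean of 0.36 ± 0.19 was 1.29-fold higher in DBA/2J (adjusted p = 0.0131), and it was 0.43 without array 1 (adjusted p = 0.00390). The call held in every alternative, between 0.32 and 0.56. Liver arrays ran from -0.04 through 0.19 to 0.55, 5 of 6 above 0, and the mean of 0.20 ± 0.21 did not pass (adjusted p = 0.0885), although it did without liver array 2 (0.25, adjusted p = 0.0480). In kidney the arrays ran from -0.38 to 0.21 around -0.03 ± 0.21 (adjusted p = 0.778). The brain ratio exceeded the kidney ratio by 0.40 (SE 0.12, adjusted p = 0.0193), with overlapping arrays. That call was lost without replicate 4 (0.41, adjusted p = 0.0519), 5 (0.37, 0.0781) or 6 (0.35, 0.0893), without loess (0.31, adjusted p = 0.169) and with loess on the unrestored intensity (0.09, adjusted p = 0.760). Of 13 measured astrocyte markers, 0 were called higher and 4 lower in DBA/2J brain, beside 7.03% and 6.03% of all features. The glutamine synthetase gene Glul (-0.94 ± 0.34, adjusted p = 0.000598) and S100b (-0.49 ± 0.41, adjusted p = 0.0246) were among the 4. Gja1 (0.09, 6 of 6 arrays above 0, adjusted p = 0.396), Aldoc (0.14, 5 of 6, adjusted p = 0.231) and Gfap (0.12, 5 of 6, adjusted p = 0.311) had positive means that did not pass. The median ratio of the 13 on an array ran from -0.16 to -0.09. None of 9 choroid plexus markers was called in brain, beside 13.1% of all features. The part of either cell type in the Apoe ratio was not tested.

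Apoh was higher in DBA/2J in kidney and in liver. The kidney arrays were all above 0, from 0.32 through 0.64 to 0.86, and the mean of 0.61 ± 0.18 was 1.53-fold higher (adjusted p = 4.18e-05). In liver the arrays ran from 0.21 through 0.31 to 0.71, and the mean of 0.40 ± 0.20 was 1.32-fold higher (adjusted p = 0.00442). Brain arrays lay on both sides of 0, from -0.49 to 0.33 (mean -0.12 ± 0.27, adjusted p = 0.439). The ratio in brain was -0.73 relative to kidney (SE 0.12, adjusted p = 0.000255) and -0.52 relative to liver (SE 0.12, adjusted p = 0.00924), with some overlap between arrays in both. With 1 loess per array the second value was -0.62 and did not pass (adjusted p = 0.0562). Both strain calls held in every alternative that tested them, with kidney values between 0.34 and 0.67 and liver values between 0.34 and 0.61. The kidney spot lay at intensity percentile 34.0, so leaving out dim features did not test its call. Kidney and liver did not differ past the threshold (0.21, SE 0.12, adjusted p = 0.266), and without loess the sign of that difference turned (-0.28, adjusted p = 0.155). The kidney spot was dim, with medians of 228 in the DBA/2J channel and 238 in the C57BL/6J channel. Of 14 liver markers measured in kidney, 5 were called higher in DBA/2J, 1 lower and 8 not, beside 18.2% of all features called higher and 18% lower there. Cyp2e1 stood at 0.90, Alb at 0.90 and Hpx at 0.34, the lower one was the antitrypsin gene Serpina1a at -1.71, a member of a family of near-identical copies, and Fgb (-0.09, adjusted p = 0.320), Ahsg (0.01, adjusted p = 0.925) and Trf (0.03, adjusted p = 0.787) were among those not called. The spots of Cyp2e1 and of Pck1, another of the 14, were also bright in kidney, at intensity percentiles 97.6 and 98.8. They do not set liver apart from kidney. The median ratio of the 14 on a kidney array ran from 0.06 to 0.19. Over the wider list of 32 measured hepatocyte secreted proteins, 7 were higher and 7 lower in kidney, with array medians from -0.02 to 0.05. Their part in the Apoh ratio was not tested.

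The measured genes nearest to the apolipoprotein clusters were read for comparison. On chromosome 7, Apoc4, between Apoc2 and Apoc1, was higher in DBA/2J liver (0.27 ± 0.25, adjusted p = 0.0459, 5 of 6 arrays above 0), as Apoc2 was. The Apoc4 call was lost with loess on the unrestored intensity (0.15) and without liver array 1, 2, 3, 4 or 6. Apoc4 was not called in kidney (-0.13, adjusted p = 0.182) or brain (-0.07, adjusted p = 0.530). On the side of Apoe, none of Tomm40, Nectin2 and Bcam was called in any tissue, with means between -0.14 and 0.13. On the other side Clasrp (0.28), Relb (0.34, but -0.25 without loess) and Clptm1 (0.22) were called higher in kidney, and Clptm1 was called lower in liver (-0.31 ± 0.22, adjusted p = 0.0197). Clptm1 lost its kidney call with loess on the unrestored intensity, with 1 loess per array and without kidney array 1, 2, 3, 5 or 6, and its liver call without liver array 3, 4 or 6. With 1 loess per array Clasrp (0.20) and Relb were not past the threshold either, nor was Relb with loess on the unrestored intensity. On chromosome 9, Sidt2, Pafah1b2, Sik3, Apoa5 and Zpr1 were called in no tissue, and 4931429L15Rik was called higher in kidney (0.32, but -0.21 without loess and not past the threshold with loess on the unrestored intensity). Apoa5, which promotes triglyceride clearance and lies beside Apoa4, stood at 0.19 in brain, at 0.21 in kidney and at 0.18 in liver. No difference between an apolipoprotein gene and a neighbour was tested.

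**Figure D4:**
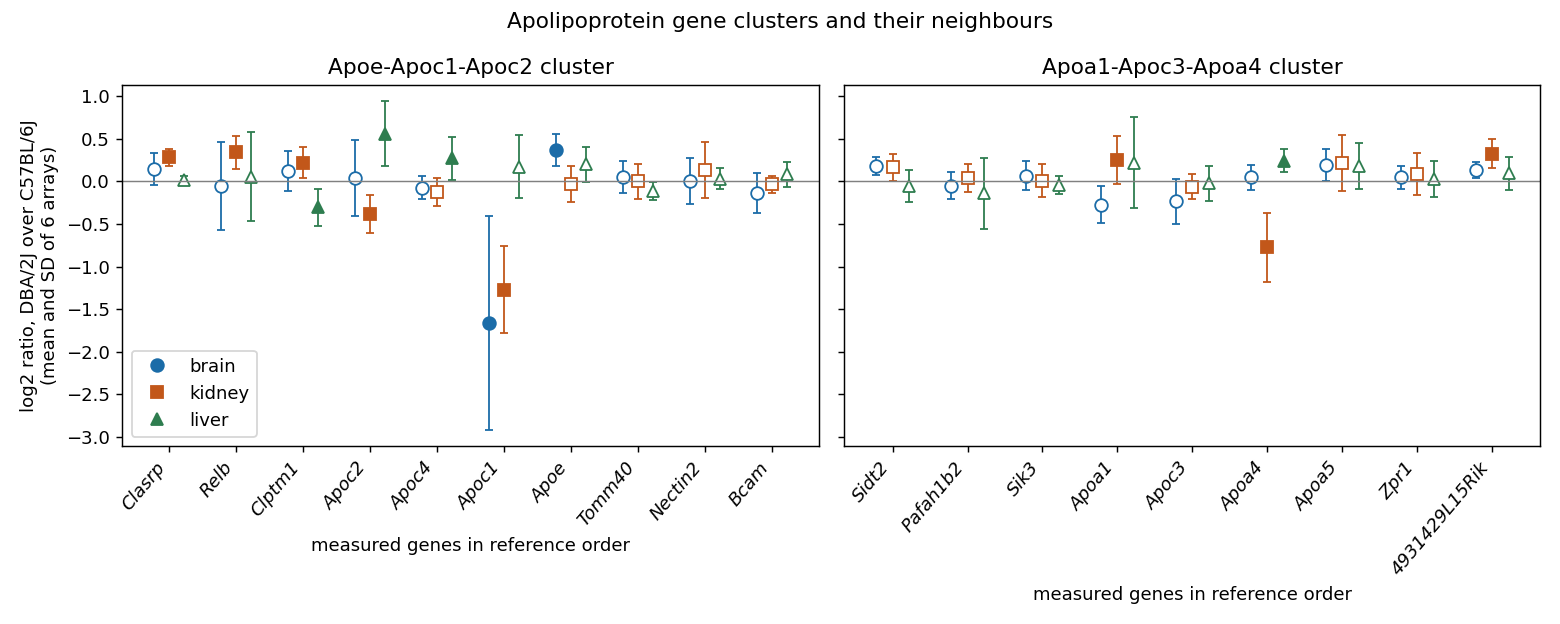
Mean log2 ratio of DBA/2J over C57BL/6J (y axis, error bars are the SD of 6 arrays) for the measured genes in and around the apolipoprotein clusters of chromosomes 7 (left) and 9 (right), in reference order, in brain (circles), kidney (squares) and liver (triangles). Filled symbols have an adjusted p under 0.05, and the lowest are Apoc1 in brain at -1.66 and in kidney at -1.27.

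Of 106 other genes listed for lipoprotein biology, 83 were measured. In brain 6 were higher and 2 lower in DBA/2J, in kidney 10 were higher and 17 lower, and in liver 13 were higher and 15 lower. These are 9.64%, 32.5% and 33.7% of the 83, beside 13.1%, 36.2% and 23.2% of all features. With the 1.5-fold rule the counts were 1, 4 and 5, or 1.20%, 4.82% and 6.02% of the 83, beside 1.65%, 3.54% and 2.42%. Their median ratio was -0.02 in brain and liver and -0.03 in kidney. The kidney directions of single genes were the least stable. Of the 26 kidney calls named here beyond the 10 genes, 8 were called in every alternative that tested them. The sign was kept in every one for 16, and the other 10 turned when arrays were centred on the median with no loess. All 10 brain and all 22 liver calls named kept their sign, and 2 and 12 of them were called in every alternative that tested them. The brain calls that held were Glul and Apol7a. Those in liver were Hc, Pon3, P4hb, Lipa, Msr1, Npc2, Abcg1, Nr0b2, Foxa3, Nr2f2, Orm1 and Cfb. Those in kidney were Cd14, Cyp2e1, Alb, Hpx, Serpina1a, Nr2f2, Nr1d1 and Nr5a2. Some of these spots lay under the median intensity, so leaving out dim features did not test their calls. They were Apol7a in brain (intensity percentile 11.8) and Foxa3 (1.36) and Nr2f2 (34.8) in liver. In kidney they were Nr2f2 (19.8), Nr1d1 (32.1) and Nr5a2 (14.9). Every other call named beyond the 10 genes was lost or turned in at least 1 alternative.

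Among 15 other measured apolipoproteins and lipoprotein-bound proteins, 3 were higher and 2 lower in liver, 0 higher and 3 lower in kidney, and 1 higher in brain. Their medians were 0.10, 0.09 and -0.03. In the same order, 23.2%, 36.2% and 13.1% of all features were called. Pon3, a lactonase carried on high density lipoprotein, was lower in DBA/2J liver (-0.38 ± 0.10, adjusted p = 0.00201) and kidney (-0.27 ± 0.13, adjusted p = 0.00695, but 0.37 without loess). Apof, an inhibitor of lipid transfer, was lower in kidney (-0.55 ± 0.27, adjusted p = 0.000389, but 0.16 without loess). Apol7a, of a family of similar copies, was higher in brain (0.82 ± 0.59, adjusted p = 0.00914) and liver (0.32 ± 0.23, adjusted p = 0.0183) and lower in kidney (-0.26 ± 0.19, adjusted p = 0.0158). Saa1 (0.30) and Saa2 (-0.31), acute-phase proteins of high density lipoprotein, were called in opposite directions in liver, but they are near-identical copies whose signals a spot may not separate.

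Of 10 measured genes of lipoprotein assembly, 1 was lower in liver, 1 lower in kidney and 1 higher in brain, beside 23.2%, 36.2% and 13.1% of all features called, with medians of -0.06, -0.03 and -0.01. The liver call was P4hb, the protein disulfide isomerase that is also the small subunit of the microsomal triglyceride transfer protein which loads lipid onto Apob. It stood at -0.59 ± 0.25, 1.51-fold lower in DBA/2J (adjusted p = 0.000831), below 0 on all 6 arrays, as was Apob itself. Mttp, the large subunit, was not called in liver (0.07 ± 0.20, adjusted p = 0.563, 3 of 6 arrays above 0). A link between P4hb or Mttp and the Apob ratio was not tested. Sort1, a sorting receptor, was lower in kidney (-0.25 ± 0.12, adjusted p = 0.0107), and Pdia3 was higher in brain (0.26 ± 0.11, adjusted p = 0.0300). The Sort1 call was lost with loess on the unrestored intensity, and the Pdia3 call without brain array 2, 4, 5 or 6.

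Of 9 measured lipase and lipid transfer genes, 2 were higher and 1 lower in kidney, 1 higher and 2 lower in liver and 1 higher in brain. The medians were -0.04, -0.06 and 0.13, beside 36.2%, 23.2% and 13.1% of all features called. Lpl, the lipase that Apoc2 activates, was lower in DBA/2J kidney (-0.53 ± 0.39, adjusted p = 0.00260, but 0.05 without loess), where Apoc2 was lower too. The kidney call of Apoc2 did not pass without loess or with loess on the unrestored intensity. Lpl was higher in brain (0.24 ± 0.14, adjusted p = 0.0466). That call was lost with 1 loess per array and on leaving out any 1 of the 6 brain arrays. Angptl4, an inhibitor of that lipase, was higher in kidney (0.23 ± 0.24, adjusted p = 0.0462, but -0.15 without loess). Lipa, the lysosomal acid lipase, was lower in liver (-0.37 ± 0.08, adjusted p = 0.00183) and higher in kidney (0.26 ± 0.15, adjusted p = 0.0109).

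Receptors and uptake genes had 15 measured members, with 2 higher and 2 lower in liver, 1 higher and 4 lower in kidney and 0 higher and 2 lower in brain. The medians were -0.03, -0.08 and -0.06, beside 23.2%, 36.2% and 13.1% of all features called. Msr1, a scavenger receptor of macrophages, was lower in DBA/2J in all 3 tissues, at -1.07 ± 0.23 in liver (adjusted p = 1.52e-05), -0.35 ± 0.19 in kidney (adjusted p = 0.00306, but 0.62 without loess) and -0.30 ± 0.11 in brain (adjusted p = 0.0160). Cd36, a receptor for fatty acids and modified lipoproteins, was lower in kidney (-0.70 ± 0.27, adjusted p = 5.91e-05, but 0.25 without loess). Lrp1, a remnant receptor that binds Apoe, was lower in kidney (-0.33 ± 0.18, adjusted p = 0.00385). The Lrp1 call was lost without loess and with loess on the unrestored intensity. Lrp8, another Apoe receptor, was higher in liver (0.32 ± 0.29, adjusted p = 0.0321), a call lost without liver array 1, 3, 4 or 6. Sorl1 was lower in brain (-0.38 ± 0.37, adjusted p = 0.0493). Its call was lost without loess, with loess on the unrestored intensity and with dim features left out. It was also lost without brain array 1, 2, 4, 5 or 6.

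Of 10 measured sterol export and efflux genes, 1 was higher and 5 lower in liver, 0 higher and 4 lower in kidney and 1 higher in brain. The medians were -0.19, -0.17 and 0.00, beside 23.2%, 36.2% and 13.1% of all features called. Npc2, which hands cholesterol out of lysosomes, was lower in liver (-0.85 ± 0.40, adjusted p = 0.000650) and kidney (-0.71 ± 0.37, adjusted p = 0.000251). Its kidney call was lost with loess on the unrestored intensity. Abcg1, which exports sterol to high density lipoprotein, was lower in liver (-0.56 ± 0.46, adjusted p = 0.0116), and so was the bile salt pump Abcb11 (-0.30 ± 0.13, adjusted p = 0.00964). Npc1 went the other way in liver (0.33 ± 0.16, adjusted p = 0.00732) and was lower in kidney (-0.39 ± 0.40, adjusted p = 0.0162).

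Transcription factors with known roles at apolipoprotein genes had 24 measured members, with 6 higher and 3 lower in liver, 7 higher and 4 lower in kidney and 2 higher in brain. The medians were 0.02, 0.10 and 0.02, beside 23.2%, 36.2% and 13.1% of all features called. In liver Nr0b2, a repressor of bile acid synthesis, was higher in DBA/2J (0.72 ± 0.26, adjusted p = 0.000287), as were Foxa3 (0.56 ± 0.27, adjusted p = 0.00171, from a dim spot at intensity percentile 1.36) and Cebpa (0.32 ± 0.20, adjusted p = 0.0119). Nr2f2, known to repress apolipoprotein promoters, was lower in liver (-0.75 ± 0.20, adjusted p = 7.61e-05) and kidney (-1.06 ± 0.23, adjusted p = 9.45e-07). In kidney Nr1d1, a clock repressor, was higher (0.62 ± 0.21, adjusted p = 5.75e-05), and Nr5a2 was lower (-0.55 ± 0.20, adjusted p = 0.000149). In brain Nr1d1 was higher as well (0.31 ± 0.16, adjusted p = 0.0201).

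**Figure D5:**
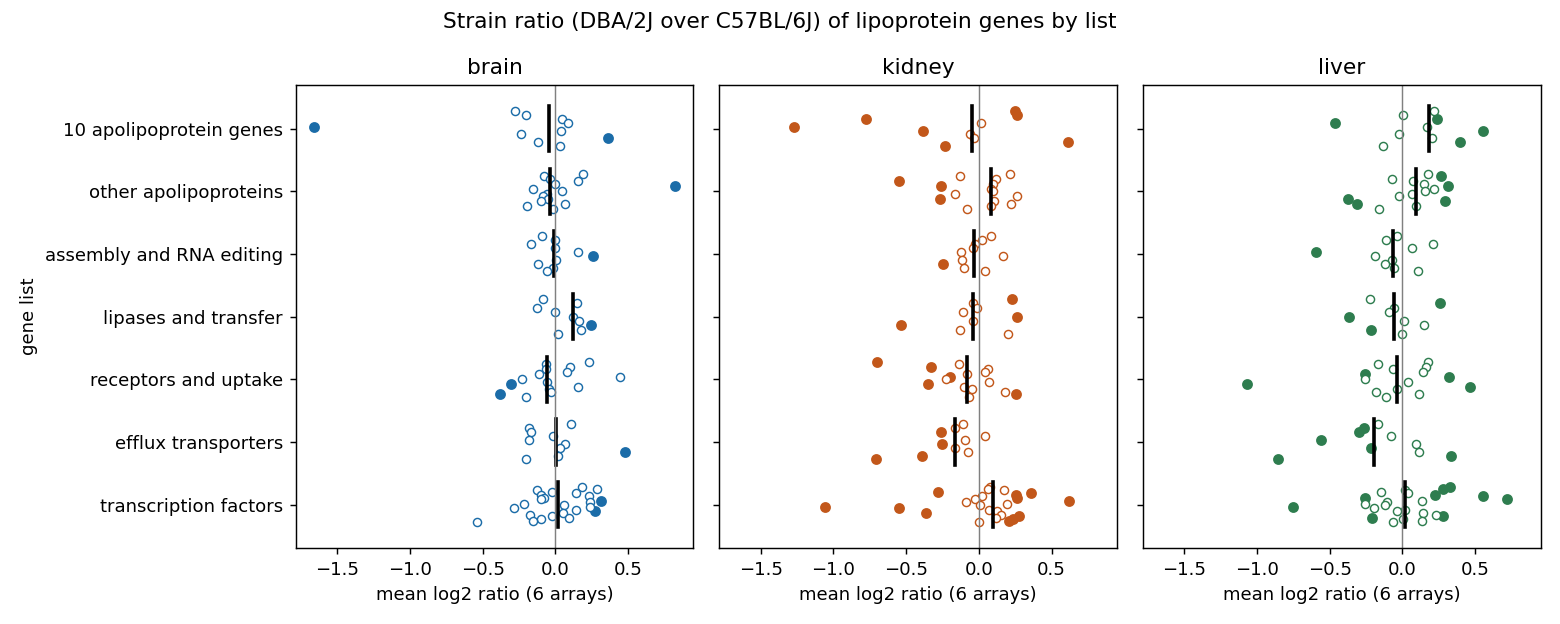
Mean log2 ratio of DBA/2J over C57BL/6J over 6 arrays (x axis) of each measured gene of 7 lists in brain, kidney and liver (1 point per gene), with the median of each list as a black bar. Filled points have an adjusted p under 0.05; the 10 apolipoprotein genes have medians of -0.04, -0.05 and 0.19.

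Other secreted liver proteins serve as a comparison for the liver values. Of 32 measured hepatocyte secreted proteins, 3 were higher and 11 lower in DBA/2J liver, beside 11% and 12.2% of all features there. Their median ratio was -0.03, with array medians from -0.16 to 0.05. Orm1, an acute-phase protein, was higher (0.38 ± 0.23, adjusted p = 0.00781), and the complement gene Cfb (-0.48 ± 0.14, adjusted p = 0.000710) and the fetuin gene Ahsg (-0.38 ± 0.13, adjusted p = 0.00278) were lower. Of 16 macrophage and Kupffer cell markers, 0 were higher and 2 lower in liver, and of 10 blood cell markers 1 was higher and 2 lower. In kidney 0 blood cell markers were higher and 3 lower, beside 18.2% and 18% of all features there. Among the 3 was the globin gene Hba-a1 (-0.69 ± 0.30, adjusted p = 0.000121, but 0.53 without loess), and in brain Hba-a1 was also lower (-0.55 ± 0.41, adjusted p = 0.0155). The part of blood content in the apolipoprotein ratios was not tested.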

How the data were processed

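The labels name Spot for quantification and a print-tip lowess in limma, without versions. The deposited values are log2 ratios, but 100.0% of the values of the 21765 spots used equal a ratio of whole numbers within 1e-12, and they are neither centred nor free of intensity trends, so they were treated as not normalised. Another 1275 of 23040 spots, 0 on every array, were left out. Both intensities were restored from each ratio, up to a common factor estimated for 40.1% of values as above 1. The factor came from an intensity fitted to each spot in each tissue, with an offset for each array. In that fit, part of the prior weight lay near the spot's intensity in the other tissues. Print-tip loess of the ratio on this fitted intensity (span 0.3, 4 iterations, 48 blocks of 480 spots by spot order) was run with limma 3.58.1 in R 4.3.3. Spots of 1 symbol were averaged, giving 20218 features: 16642 spots carried 1 symbol, 134 several and 4989 none, and 15964 were matched through Entrez identifiers to RefSeq's GRCm38.p6. Each tissue's mean was tested against 0 on its 6 arrays, and tissue differences in 1 fit of 18 arrays, with the Benjamini-Hochberg adjustment over all features. The fits were tested on simulated data.

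The 10 genes and the gene lists were chosen with earlier results of these data known. All 10 genes are named. Of each other list, up to 4 called genes per tissue with the largest mean ratios could be named, with the 3 nearest measured neighbours on each side of both clusters and the 2 genes most alike the gene with the largest ratio in each tissue. Alternatives were other normalisations, features under the median intensity left out, another prior, single spots and an exact, unadjusted sign-flip test (smallest possible p 0.03125). Others were a replicate block and each array left out. For Apoc1, both liver arrays near the scanner's limit were also left out, chosen after seeing the data. Each of the 10 genes has a single spot, so the single-spot fit used the same ratios and could hardly change a call. The sign-flip test passed whenever all arrays of a tissue shared a sign. These 2 alternatives therefore add little weight to the calls of the 10 genes that held. The number of arrays limits the precision.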

Additional observations from a re-analysis of the deposited data

Results flagged for a closer look

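Of the 30 groups of 6 arrays, 3 held a value far from the other 5, where chance alone marks about 1 in 20 groups. Liver array 1 stood at 1.29 for Apoa1, with the others between -0.14 and 0.13. That array also gave the highest liver value of 5 of the 10 genes and the lowest of 1. Such counts were not particular to it: brain array 5, with no flagged value, gave the highest brain value of 4 genes and the lowest of 3. Brain array 1 stood at -4.11 for Apoc1, with the others between -1.65 and -0.81. Brain array 2 stood at 0.62 for Apom, with the others between -0.20 and 0.04.

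12 strain ratios differed between a pair of tissues in limma's fit over the 18 arrays. Of all features, 17.6% were called for brain minus kidney, 7.14% for brain minus liver and 14.4% for kidney minus liver. Apoa1 (-0.52), Apoa2 (-0.47) and Apoh (-0.73) had a lower ratio in brain than in kidney, and Apoa4 (0.82) and Apoe (0.40) a higher one. Between brain and liver, Apob (0.55) had the higher ratio in brain, and Apoc1 (-1.83) and Apoh (-0.52) the lower. Between kidney and liver, Apob (0.48) had the higher ratio in kidney, and Apoa4 (-1.02), Apoc1 (-1.45) and Apoc2 (-0.94) the lower. For Apoa4 and Apoc2 the strains were called in opposite directions in kidney and liver.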

How the results depend on the processing

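Of the 13 strain calls, those of Apob, Apoc2 and Apoh in liver, Apoa4, Apoc1 and Apoh in kidney and Apoe in brain held under every alternative that tested them; those of Apoa1, Apoa2, Apoc2 and Apom in kidney, Apoa4 in liver and Apoc1 in brain did not, as given beside each, and the cause was not tested. With the features under the median intensity left out, fewer features were tested, and 1391 were called in brain (2640 with all features), 3204 in kidney (7328) and 2841 in liver (4692). Without loess 13113 were called in kidney, 7113 for brain minus kidney (3568 with loess), 830 for brain minus liver (1443) and 9288 for kidney minus liver (2906). For brain minus liver, loess on the unrestored intensity gave 774 and 1 loess per array 826. Leaving out 1 array number in turn gave 1178 to 3260 calls in brain (1595 without array 2, 1178 without 4, 1323 without 5, 1399 without 6), 3001 (without array 3) to 4684 in liver, 2206 to 3642 for brain minus kidney (2242 without 4, 2206 without 5, 2257 without 6), 869 (without 4) to 1331 for brain minus liver (950 without 6) and 1835 (without 4) to 2794 for kidney minus liver.

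Signs turned without loess for Apoa1 in kidney (-0.35) and kidney minus liver (-0.48), Apob in brain (-0.19), kidney (-0.58, adjusted p = 8.65e-05) and kidney minus liver (-0.14), Apoc2 in brain (-0.056), Apoc3 in kidney (0.12), liver (0.028) and kidney minus liver (0.095), Apoe in kidney (0.25) and kidney minus liver (0.037), Apoh kidney minus liver (-0.28), and Apom in kidney (0.12), brain minus kidney (-0.062) and kidney minus liver (0.20). Of the other genes named, Ctss (0.32), Relb (-0.25), 4931429L15Rik (-0.21), Pon3 (0.37), Apof (0.16), Lpl (0.053), Angptl4 (-0.15), Msr1 (0.62), Cd36 (0.25) and Hba-a1 (0.53) turned without loess, all in kidney. Loess on the unrestored intensity turned Apoa1 kidney minus liver (-0.084), Apob in brain (-0.0058) and kidney (-0.13), Apoc2 in brain (-0.0060), Apoc3 in kidney (0.18) and kidney minus liver (0.30), Apoe in kidney (0.28) and kidney minus liver (0.16), and Ctss in kidney (0.062). With 1 loess per array, Apoa1 in kidney (-0.10) and kidney minus liver (-0.14), Apob in kidney (-0.070) and Apoc3 kidney minus liver (0.019) turned. Leaving out 1 array turned only values that were not called, whose ranges were -0.095 to 0.24 for Apoa1 kidney minus liver, -0.043 to 0.13 for Apoa2 in liver, -0.0033 to 0.14 and -0.011 to 0.040 for Apob in brain and kidney, -0.57 to 0.033 for Apoc1 brain minus kidney, -0.11 to 0.15 for Apoc2 in brain, -0.081 to 0.021 and -0.11 to 0.056 for Apoc3 in liver and kidney minus liver, -0.081 to 0.038 for Apoe in kidney and -0.086 to 0.076 for Apom in brain.

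The replicate numbers did not pair the arrays: the 18 correlations of same-numbered arrays ran from -0.24 to 0.16, with 2 over 0.1. With the replicate number as a block, 3301 features were called for brain minus kidney, 1309 for brain minus liver and 2674 for kidney minus liver, and among the 30 differences of the apolipoprotein genes only that of Apoa1 between brain and kidney changed its call (adjusted p = 0.0521). Signal near the scanner's limit bounds Apoc1 in liver, and the dim spots of Apob in brain and kidney limit their ratios.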
